A study of Mus musculus with 12 samples.

Results

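Doxorubicin and hydrogen peroxide are both used to drive cultured cells into senescence, and here the end states that followed the 2 agents were set directly against each other. The comparison took the 3 libraries of doxorubicin-treated mouse mammary fibroblasts and the 3 libraries of peroxide-treated fibroblasts, 6 of the 12 libraries of the study, chosen by treatment label and by no measured value. All cells came from 1 primary fibroblast line of a healthy B6 mouse, isolated from its mammary fat pad. The doxorubicin group received 100 nM of the drug for 24 h, with medium renewed every 3 days, and was harvested on day 7. The peroxide group received 750 uM hydrogen peroxide for 2 h on 3 occasions with recovery periods of 48 h, and its cells were harvested on day 6. Each experiment had 3 water-treated vehicle libraries, whose cells were split as they grew. Inducer, day of lysis and experiment cannot be told apart in the direct difference. The vehicle groups differ by day and experiment but by no inducer, so their difference is given beside it. Nothing in the labels ties the replicates of a group to separate cultures, and the tests therefore speak of library-to-library spread, which may be technical.

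Senescent cells have withdrawn from the cell cycle under p53 and cyclin-dependent kinase inhibitors, and they secrete cytokines, chemokines, proteases and matrix proteins. Doxorubicin slips between DNA bases and traps topoisomerase II on broken DNA, whereas hydrogen peroxide oxidises DNA, protein and lipid and is itself removed by catalase, peroxiredoxins and glutathione peroxidases. DNA or RNA in the wrong compartment of a cell can be detected by sensors such as cGAS and RIG-I, which switch on type I interferon. Interferon then acts through transcription factors such as STAT2 and IRF9 on a large set of antiviral and antigen-presentation genes.

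Values are in CPM, the reads of a gene scaled to a common library total. Differences are doxorubicin minus peroxide on the log2(CPM + 1) scale, with the standard error (SE) from a limma model, and this scale understates the change of genes with few reads. The model took the spread from all 12 libraries, vehicles included, and n gives only the libraries compared. Vehicle libraries with little spread can therefore lower the SE and the adjusted p. Where 3 values are given together, they are replicates 1, 2 and 3 of a group in that order. A gene was called higher or lower when its Benjamini-Hochberg adjusted p fell below 0.05. Estimated depth ran from 21.5 to 37.6 M reads in the doxorubicin libraries and from 21.4 to 32.4 M reads in the peroxide libraries. All 16 fibroblast markers were expressed, and the markers summed to between 11260 and 15567 CPM in the doxorubicin libraries and between 11432 and 12814 CPM in the peroxide libraries. Few markers of other cell types passed the filter on low values, 1 of 13 for epithelium, 2 of 10 for endothelium, 3 of 11 for leukocytes and 5 of 10 for pericytes and Schwann cells. Summed epithelial markers lay between 69.1 and 80.9 CPM against 18.6 and 58.5 CPM, endothelial markers between 38.8 and 45.9 CPM against 26.4 and 32.8 CPM, and leukocyte markers between 27.4 and 32.9 CPM against 23.7 and 26.7 CPM. Pericyte and Schwann markers summed to between 54.7 and 61.0 CPM against 54.2 and 67.3 CPM, and Cldn5 and Kcnj8 were at 0 in all treated libraries. Adipocyte markers, of which 5 of 9 passed, summed to between 1424 and 1509 CPM with doxorubicin and to between 2120 and 2222 CPM with peroxide. The part of other cell types in the differences was not tested. Doxorubicin replicate 1 and peroxide replicate 2 stood apart within their groups. On the first principal component of the 6 treated libraries (64.3% of the variance) doxorubicin replicate 1 scored 5.70 against 47.3 and 34.2 for its group, and peroxide replicate 2 scored -47.6 against -20.5 and -19.2. Among list members Cmpk2, Mx1, C3, Cfd, Cxcl2, Perp, Bmp4, Ltbp2, Mmp3 and Cd36 passed the filter through the doxorubicin libraries alone. The filter asked for 1 CPM in 3 or more of 12 libraries, and for these genes no other library reached 1 CPM. A difference was thus built into their selection. Genes with too few other libraries at 1 CPM, such as Cxcl10 and Tgtp2, also depended on the doxorubicin group to pass, and such genes were not counted.

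Across 13280 tested genes, 1262 (9.5%) were higher with doxorubicin and 2384 (18%) were higher with peroxide, so that 3646 (27.5%) differed between the end states. Large differences ran the other way: 510 genes (3.84%) were higher with doxorubicin by at least 1 on the log2 scale, against 78 (0.587%) higher with peroxide. The median difference over all tested genes was -0.07. A fit of the 6 treated libraries alone called 454 genes higher with doxorubicin and 826 higher with peroxide. The split of calls depended on scaling, since 34.6% of calls were higher with doxorubicin in the CPM as deposited, 53.8% with TMM factors (1661 against 1425 genes) and 49.5% with median-of-ratios factors (1577 against 1607 genes). Libraries of the groups did not overlap for 5460 genes (41.1%), with doxorubicin above for 1897 (14.3%) and peroxide above for 3563 (26.8%). The shares of 9.5% and 18% are the background for every list count in the direct difference below.

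**Figure D1:**
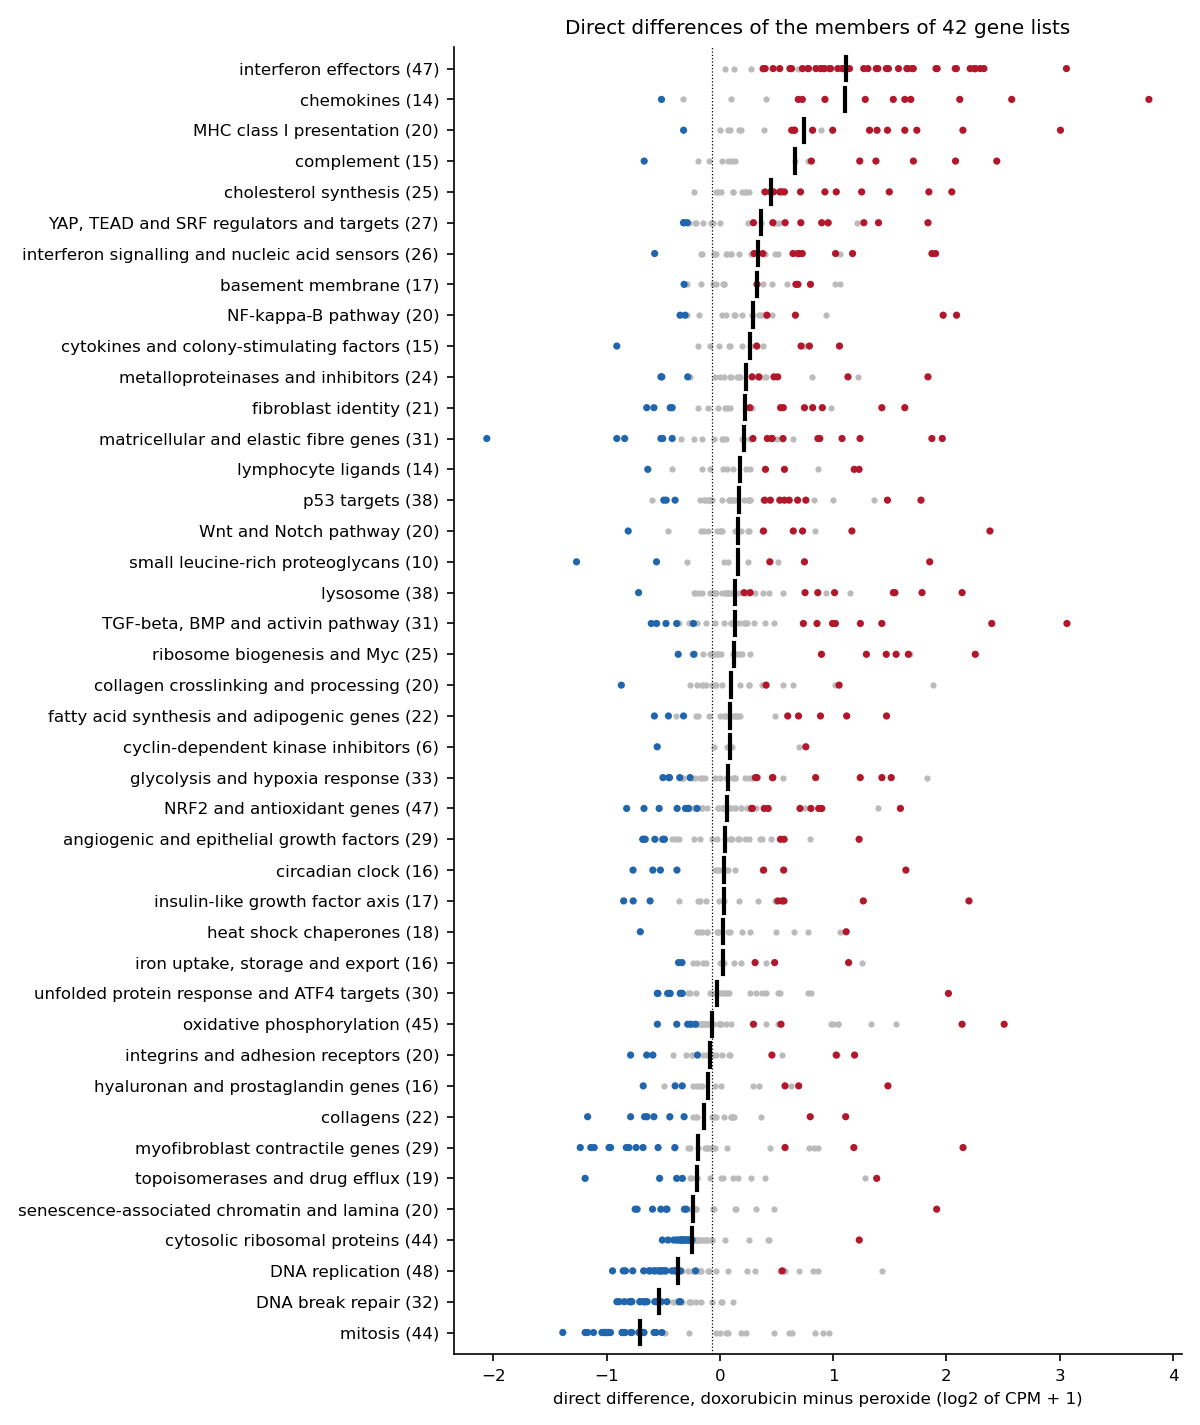
Each row is 1 of 42 gene lists (tested members in brackets) and each point 1 member, placed by its direct difference in log2(CPM + 1); red points passed the test as higher with doxorubicin, blue points as higher with peroxide, grey points did not pass, black bars are list medians and the dotted line is the median of all tested genes. Interferon effectors stand at the top with a median of 1.11 and mitosis at the bottom with -0.70.

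Interferon effector genes, which restrict viruses, were higher after doxorubicin than after peroxide. Of 47 tested effectors (of 48 listed), 42 were higher with doxorubicin and 0 with peroxide, beside 9.5% and 18% of all tested genes, and their median difference was 1.11 beside -0.07. For 47 of 47 effectors every library of each treated group lay above every library of its own vehicle, so the comparison is between 2 raised levels. The vehicles themselves differed in the same direction, with 24 effectors higher in the doxorubicin vehicle, 0 in the peroxide vehicle and a median of 0.53. Over all tested genes 15.1% were higher in the doxorubicin vehicle and 12.9% in the peroxide vehicle. The difference of treatment effects, doxorubicin over its vehicle minus peroxide over its vehicle, was called higher for 21 and lower for 3, with a median of 0.65, beside 13.5% and 20.1% of all tested genes. Cmpk2 and Mx1 passed the filter on low values through the doxorubicin libraries alone, and Ifi44l did not pass it. Across the alternative settings the number of effectors called higher with doxorubicin ran from 35 to 44.

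Rsad2 (viperin, chr12:26442746-26456452, - strand), an enzyme that makes a chain-terminating nucleotide against viral polymerases, stood at 37.8, 30.8 and 33.9 CPM with doxorubicin and 2.71, 4.26 and 2.80 CPM with peroxide. All doxorubicin libraries lay above all peroxide libraries, by 3.06 ± 0.15 (SE, n = 3 and 3, adjusted p = 1.31e-06). In the vehicles Rsad2 was at 0.395, 0.182 and 0.308 CPM for doxorubicin and 0.0569, 0 and 0.0578 CPM for peroxide. Isg15 (chr4:156199424-156200818, - strand), a ubiquitin-like protein that is attached to new proteins in infected cells, stood at 317, 295 and 300.2 CPM with doxorubicin and 89.1, 175 and 80.3 CPM with peroxide. Its difference was 1.49 ± 0.23 (SE, n = 3 and 3, adjusted p = 0.00148), and the highest peroxide library, replicate 2, still lay below every doxorubicin library. The vehicles held 2.71, 2.28 and 2.82 CPM and 1.08, 1.10 and 1.56 CPM of Isg15.

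The oligoadenylate synthetases, which make a messenger molecule that activates RNase L, were among the largest differences. Oas2 stood at 34.4, 31.9 and 39.1 CPM with doxorubicin and 5.28, 7.78 and 5.65 CPM with peroxide, a difference of 2.33 ± 0.14 (SE, n = 3 and 3, adjusted p = 4.36e-06), and was listed at 0 in all 6 vehicle libraries. Oas3 (2.25), Oasl1 (1.92), Oas1g (1.91), Oas1a (1.27) and Oasl2 (1.11) were also called higher with doxorubicin, while Oas1b (0.69, adjusted p = 0.0647) did not pass. Mx1, a dynamin-like GTPase that traps viral nucleocapsids, was at 9.25, 5.55 and 5.76 CPM with doxorubicin and 0.857, 0.803 and 0.140 CPM with peroxide, with a difference of 2.30 ± 0.21 (SE, n = 3 and 3, adjusted p = 5.58e-05). The RNA-binding Ifit proteins followed, with Ifit3 at 2.25, Ifit1 at 2.08 and Ifit2 at 1.39. The smallest differences in the list were those of Eif2ak2 (0.05), the kinase PKR that halts translation, of Ifi27 (0.13) and of Isg20 (0.27), none of which passed.

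**Figure D2:**
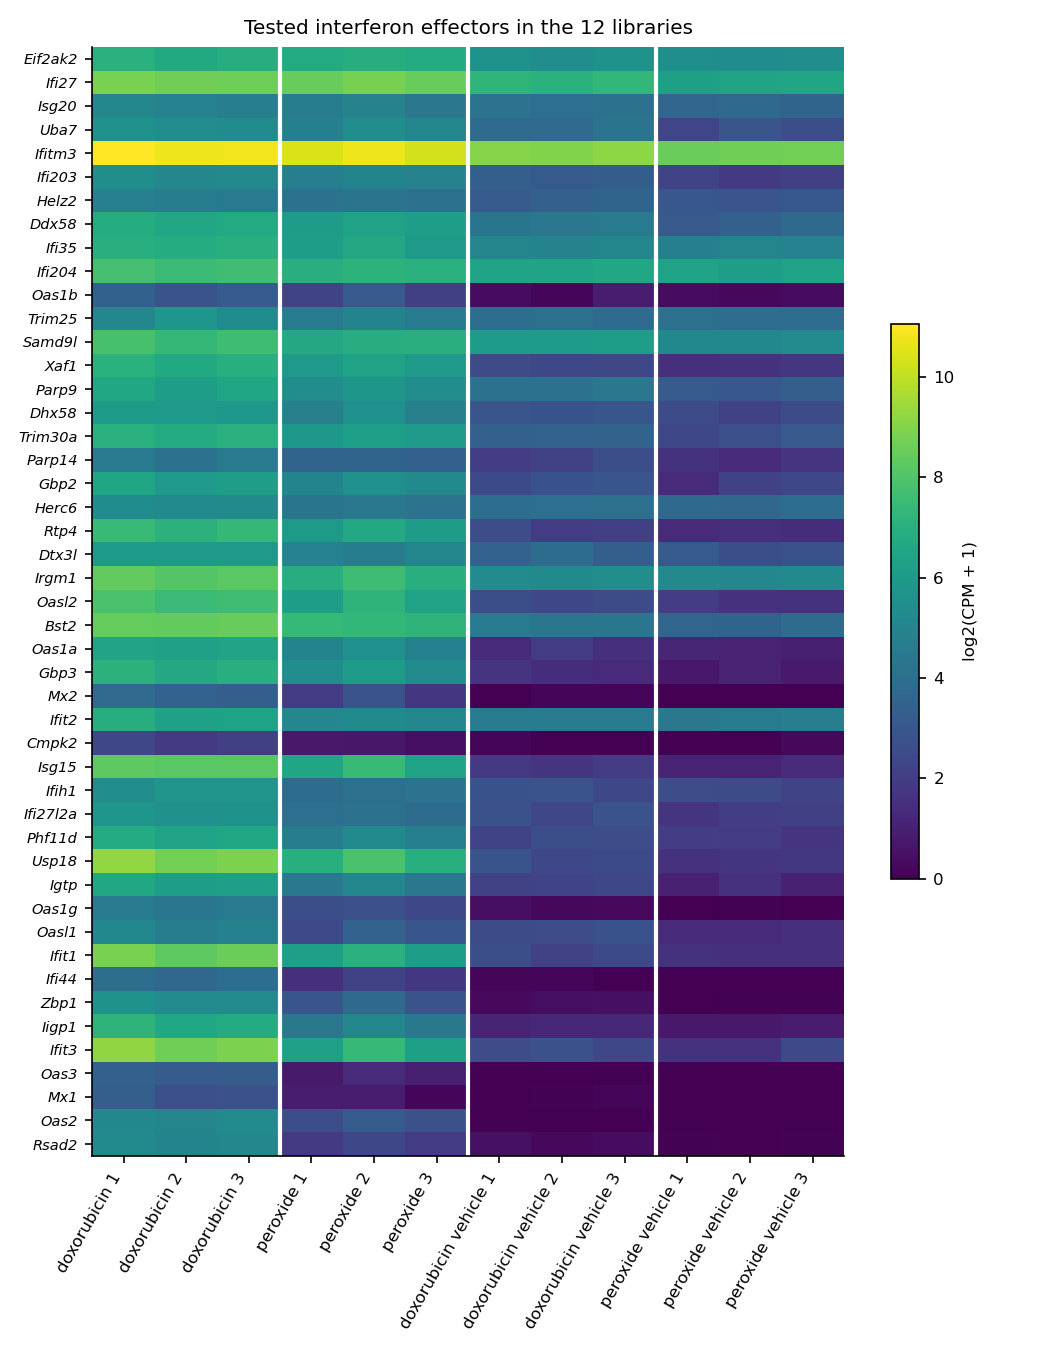
Levels of the 47 tested interferon effectors (rows, ordered by direct difference) in the 12 libraries (columns, grouped by treatment), with colour giving log2(CPM + 1). The 3 doxorubicin columns are brighter than the 3 peroxide columns for most genes, and both are brighter than the vehicle columns.

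2 gene families that share members with the list were chosen after their values were seen. Of the interferon-inducible GTPases, which attack membranes around intracellular parasites, 15 of 15 tested members (of 17 in the table) were higher with doxorubicin, with a median of 1.31. Gbp5 and Gbp10 among them passed the filter through the doxorubicin libraries alone, and the other 13 were all called. Of those 13, Tgtp1 and Tgtp2 would not have reached 1 CPM in 3 libraries without the doxorubicin group, so their calls were favoured by selection as well. Tgtp2 stood at 24.6, 13.6 and 18.1 CPM with doxorubicin and 0.868, 2.07 and 1.46 CPM with peroxide, a difference of 3.00 ± 0.23 (SE, n = 3 and 3, adjusted p = 2.32e-05). Of its 50-base windows 90.6% are shared with other genes, mainly Tgtp1, so reads of the pair cannot be kept apart with certainty. Of the Ifi200 family of nuclear DNA-binding proteins, 8 of 8 tested members (of 11) were higher, with Ifi203 lowest at 0.40. Ifi206 (2.57, 26.1% of windows shared) passed the filter through the doxorubicin libraries alone, and 7 of the other 7 were called. Ifi209 among those 7 would not have reached 1 CPM in 3 libraries without the doxorubicin group.

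The interferon-activated transcription factor complex with STAT2 and IRF9 binds a DNA element with paired GAAA motifs, and the promoters of several effectors show it. Sequences below are from RefSeq windows on GRCm38.p6, from 250 bases before to 50 bases after the transcription start, written 5′ to 3′ along the gene, with matches to GAAA, any 2 bases and GAAA again, on either strand, in capitals (on the opposite strand they read as TTTC pairs). They were chosen to show the element in genes of the list and in Cxcl10, the largest difference among the genes ranked by rule. Isg15 (chr4:156200860-156200911, - strand) holds 3 overlapping matches, Bst2 (chr8:71537572-71537617, - strand) 2 overlapping ones, Ifit1 (chr19:34640770-34640828, + strand) 2 separate ones, and Rsad2 (chr12:26456548-26456587, - strand) and Cxcl10 (chr5:92349078-92349117, - strand) 1 each.
Isg15: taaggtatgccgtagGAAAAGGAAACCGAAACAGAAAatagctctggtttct
Bst2: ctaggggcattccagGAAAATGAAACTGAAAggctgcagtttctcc
Ifit1: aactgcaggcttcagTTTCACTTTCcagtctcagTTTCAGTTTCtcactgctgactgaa
Rsad2: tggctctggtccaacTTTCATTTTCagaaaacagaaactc
Cxcl10: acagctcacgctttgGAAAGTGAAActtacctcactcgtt

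Of the 48 listed effectors 34 had such a window, and 18 of these (52.9%) held the element, beside 3.80% of 9687 tested genes with a window and 3.99% of 27025 windows of all genes. A stricter form, with A or G before and C after the same letters, was found in 12 (35.3%), beside 0.795% of tested genes. Among the mitosis genes 2 of 36 windows (5.56%) held the element. The 18 effectors with the element had a median direct difference of 1.29 and the other 15 tested effectors with a window a median of 0.98, with ranges of 0.05 to 3.06 and 0.27 to 2.09 that overlap over most of their length. A match is a description of the letters and not a bound site. Psmb8, described below among presentation genes, had none in the 250 bases before its start.

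Upstream of the effectors, several transcription factors of the pathway were higher with doxorubicin, and the sensors were called in part. Of 26 tested signalling and sensor genes (of 29), 10 were higher with doxorubicin and 1 with peroxide, beside 9.5% and 18% of all tested genes, with a median of 0.34; without doxorubicin replicate 2 or 3 the former count was 5 or 6. Irf7, the factor that amplifies interferon production, stood at 154, 204 and 210.4 CPM with doxorubicin and 44.8, 76.5 and 37.5 CPM with peroxide, a difference of 1.87 ± 0.25 (SE, n = 3 and 3, adjusted p = 5.88e-04). Stat2 stood at 88.03, 194 and 189.9 CPM with doxorubicin and 36.8, 35.4 and 45.00 CPM with peroxide, without overlap, by 1.90 ± 0.31 (SE, n = 3 and 3, adjusted p = 0.00200). Doxorubicin replicate 1 held less than 0.5 times the level of the other 2. Irf9 (0.38), Irf5 (1.02), Irf1 (1.17), the kinase Tyk2 (0.73), the receptor chain Ifngr1 (0.69) and the RNA sensor Tlr3 (0.70) were also among the genes called. Jak2 (-0.58) was higher with peroxide.

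The cytosolic DNA sensor Cgas (-0.05 ± 0.17, adjusted p = 0.832), its adaptor Sting1 (-0.15 ± 0.10, 0.260), the RNA-sensing adaptor Mavs (-0.04 ± 0.10, 0.778) and the kinase Tbk1 (-0.04 ± 0.08, 0.744) did not pass. The RNA sensors Ifih1 (1.58), Ddx58 (0.53) and Dhx58 (0.89), counted among the effectors because interferon induces them, did. Ifnb1, the type I interferon itself, was too low to test, with a mean of 0.237 CPM in the doxorubicin libraries, and was listed at 0 in the other 9 libraries.

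Genes that load and display peptides on MHC class I were higher with doxorubicin, 12 of 20 tested (of 23) against 1 higher with peroxide, beside 9.5% and 18% of all tested genes, with a median of 0.74. The vehicle difference was called higher for 8 and lower for 0, with a median of 0.40, beside 15.1% and 12.9% of all tested genes. The difference of treatment effects was called higher for 4 and lower for 3, with a median of 0.45, beside 13.5% and 20.1%. The immunoproteasome subunit Psmb8 stood at 15.4, 47.3 and 43.7 CPM with doxorubicin and 3.34, 3.24 and 2.71 CPM with peroxide, a difference of 3.01 ± 0.37 (SE, n = 3 and 3, adjusted p = 4.07e-04). The class I heavy chains H2-K1 (84.7, 265 and 203 against 36.7, 40.5 and 33.4 CPM, 2.15 ± 0.32) and H2-D1 (81.5, 274 and 103 against 38.99, 47.9 and 31.5 CPM, 1.74 ± 0.34) followed, and doxorubicin replicate 1 was the lowest of its group for all 3 genes. H2-D1 shares 14.3% of its windows with other genes. The peptide transporters Tap1 (1.48) and Tap2 (1.39), the loading factor Tapbp (1.32), the light chain B2m (0.65) and the class I transactivator Nlrc5 (0.82) were called in the same direction. The exception was Pdia3 (-0.32), a disulfide isomerase of the loading complex.

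Chemokines, which recruit leukocytes, held the largest difference among the ranked genes. These were named genes that passed the test with no overlap and at least 5 CPM in the higher group. Cxcl10 (chr5:92346638-92348889, - strand), a T cell attractant, stood at 40.7, 22.8 and 27.5 CPM with doxorubicin and 2.12, 1.20 and 0.561 CPM with peroxide, 3.79 ± 0.25 (SE, n = 3 and 3, adjusted p = 7.94e-06). Its vehicles held 0.592, 0.501 and 0.308 CPM and 0.341, 0.143 and 0.231 CPM. Without the doxorubicin libraries Cxcl10 would not have passed the filter, so its selection favoured a difference in this direction. Of 14 tested chemokines (of 21), 10 were higher with doxorubicin and 1 with peroxide. Ccl5, another T cell attractant, was at 20.7, 17.5 and 15.97 CPM with doxorubicin and 2.57, 2.59 and 1.495 CPM with peroxide (2.58 ± 0.16). Cx3cl1 (2.12), Cxcl9 (1.69), the neutrophil attractants Cxcl1 (1.53) and Cxcl2 (0.93), Ccl11 (1.28), Ccl2 (0.73) and Ccl8 (0.69) were also called, Cxcl2 after passing the filter through the doxorubicin libraries alone. Ccl9 (-0.51) was higher with peroxide.

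Complement genes, whose products tag targets for clearance, were higher with doxorubicin in 6 of 15 tested members (of 20) and with peroxide in 1. Cfb, the protease of the alternative pathway, stood at 42.4, 48.5 and 49.5 CPM with doxorubicin and 7.49, 9.61 and 6.496 CPM with peroxide (2.44 ± 0.14, SE, n = 3 and 3, adjusted p = 4.36e-06). Of its windows 81.4% are shared, mainly with the overlapping gene model Gm20547. C4b was at 64.6, 80.99 and 72.5 CPM with doxorubicin and 25.9, 23.6 and 16.1 CPM with peroxide (1.71 ± 0.17) and shares 35.2% of its windows with C4a. C3, the central component, differed by 1.38 ± 0.24 and Cfd, the protease that activates factor B, by 2.08 ± 0.12, and both passed the filter through the doxorubicin libraries alone. The inhibitor Serping1 (1.24) was called in the same direction and the membrane inhibitor Cd59a (-0.67) in the other.

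Cytokines, which include factors typical of the senescent secretome, held fewer calls. Il6 stood at 5.64, 4.10 and 5.33 CPM with doxorubicin and 2.03, 2.502 and 2.90 CPM with peroxide, low levels that did not overlap, with a difference of 0.79 ± 0.17 (SE, n = 3 and 3, adjusted p = 0.00779). Of 15 tested cytokines (of 22), 4 were higher with doxorubicin, namely Clcf1 (1.06), Il6, Lif (0.72) and Csf1 (0.33). Spp1 (osteopontin), a secreted integrin ligand, was the member higher with peroxide, at 373, 306 and 352 CPM with doxorubicin and 637, 648 and 647 CPM with peroxide, without overlap, by -0.91 ± 0.07 (SE, n = 3 and 3, adjusted p = 3.04e-05). In the NF-kappa-B list 4 of 20 tested members were higher with doxorubicin and 2 with peroxide. The former were led by the inhibitors Nfkbib (2.79, 25.6 and 17.5 against 2.44, 1.20 and 2.20 CPM) and Nfkbia (6.38, 41.00 and 17.02 against 3.74, 3.43 and 3.41 CPM), in which doxorubicin replicate 1 lay near the peroxide libraries. The subunits Rela (0.30), Nfkb1 (0.13) and Rel (0.14) did not pass. With 1 library left out, the list held from 1 to 7 members higher with doxorubicin and from 0 to 2 higher with peroxide.

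Among ligands seen by lymphocytes, 4 of 14 tested members (of 21) were higher with doxorubicin and 1 with peroxide. The adhesion molecule Icam1 stood at 17.4, 16.5 and 18.3 CPM with doxorubicin and 7.75, 6.21 and 6.63 CPM with peroxide (1.23 ± 0.11, SE, n = 3 and 3, adjusted p = 6.49e-05). Cd274, which encodes the T cell inhibitor PD-L1, stood at 13.5, 10.6 and 13.02 CPM with doxorubicin and 3.88, 5.56 and 5.23 CPM with peroxide (1.19 ± 0.18, SE, n = 3 and 3, adjusted p = 0.00126). Raet1d, a ligand of the activating receptor NKG2D, was higher with peroxide at -0.64, with 56.4% of its windows shared with other genes.

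Cell cycle genes gave the reverse picture and were lower with doxorubicin. Of 44 tested mitosis genes (of 44), 0 were higher with doxorubicin and 30 higher with peroxide, beside 9.5% and 18% of all tested genes, with a median of -0.70; across the alternative settings the latter count ran from 28 to 32. Up to 4 mitosis genes were called higher with doxorubicin in an alternative, when doxorubicin replicate 1, peroxide replicate 2 and doxorubicin vehicle replicate 3 were left out together. Nusap1 (chr2:119618298-119651244, + strand), which bundles spindle microtubules, stood at 18.9, 18.95 and 16.96 CPM with doxorubicin and 49.97, 47.98 and 49.9 CPM with peroxide, a difference of -1.39 ± 0.07 (SE, n = 3 and 3, adjusted p = 1.31e-06). Its vehicles were nearly level, at 69.4, 71.7 and 76.5 CPM and 72.7, 72.4 and 72.7 CPM. Top2a, the topoisomerase II isoform of dividing cells and a target of doxorubicin, stood at 82.1, 64.8 and 68.8 CPM with doxorubicin and 163, 153 and 179 CPM with peroxide (-1.19 ± 0.09, SE, n = 3 and 3, adjusted p = 2.36e-05). Its vehicles stood at 236, 259 and 271 CPM and 374, 372 and 369.6 CPM. For both genes every doxorubicin library was below every peroxide library, and every treated library was below every vehicle library.

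Mki67, the proliferation antigen, stood at 17.7, 17.5 and 19.97 CPM with doxorubicin and 35.7, 31.7 and 34.9 CPM with peroxide (-0.86 ± 0.08, SE, n = 3 and 3, adjusted p = 8.65e-05). Its vehicles differed in the same direction, 70.8, 80.1 and 78.8 CPM against 133, 122 and 121 CPM, and the difference of treatment effects did not pass (-0.15, adjusted p = 0.325). For the list as a whole the vehicle difference was called lower for 38 of 44 genes with a median of -0.59, beside 12.9% of all tested genes. The list's difference of treatment effects was called lower for 14 and higher for 6, with a median of -0.18, beside 20.1% and 13.5%. The survivin gene Birc5 (-1.17), the kinetochore genes Ndc80 (-1.11), Bub1 (-1.04) and Ttk (-1.04), the kinase Cdk1 (-1.01) and the cyclins Ccna2 (-0.99) and Ccnb1 (-0.86) were among those higher with peroxide. Members that did not pass included Plk1 (0.84), Cdca8 (0.96), Spc24 (0.91) and Ube2c (0.63), whose fitted differences pointed the other way. In such bulk samples fewer dividing cells and less RNA per dividing cell cannot be told apart.

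DNA replication genes followed with 26 of 48 higher with peroxide and 1 (Pola2, 0.55) with doxorubicin, and a median of -0.37. Prim1, the catalytic primase, stood at 10.99, 7.47 and 11.9 CPM with doxorubicin and 19.6, 20.9 and 19.8 CPM with peroxide (-0.95 ± 0.13), Ccne2 at -0.85 ± 0.13 and the thymidine kinase Tk1 at -0.83 ± 0.12. The vehicle difference of this list was called lower for 43 genes with a median of -0.71, beside 12.9% of all tested genes. Its difference of treatment effects was called higher for 19 and lower for 1, beside 13.5% and 20.1%. Break repair genes were higher with peroxide in 20 of 32 and with doxorubicin in 0. Brca2 (-0.91), the checkpoint kinase Chek2 (18.3, 18.6 and 19.1 against 36.98, 33.9 and 35.3 CPM, -0.89 ± 0.08) and the helicase Brip1 (-0.84) led them. The damage kinases Atm (0.01) and Atr (-0.41, adjusted p = 0.0580) did not pass. For break repair genes the vehicle difference was called lower for 21 and higher for 1, beside 12.9% and 15.1% of all tested genes. Its median was -0.53 beside a direct median of -0.54. Their difference of treatment effects was called lower for 4 and higher for 2, with a median of -0.09, beside 20.1% and 13.5% of all tested genes.

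**Figure D3:**
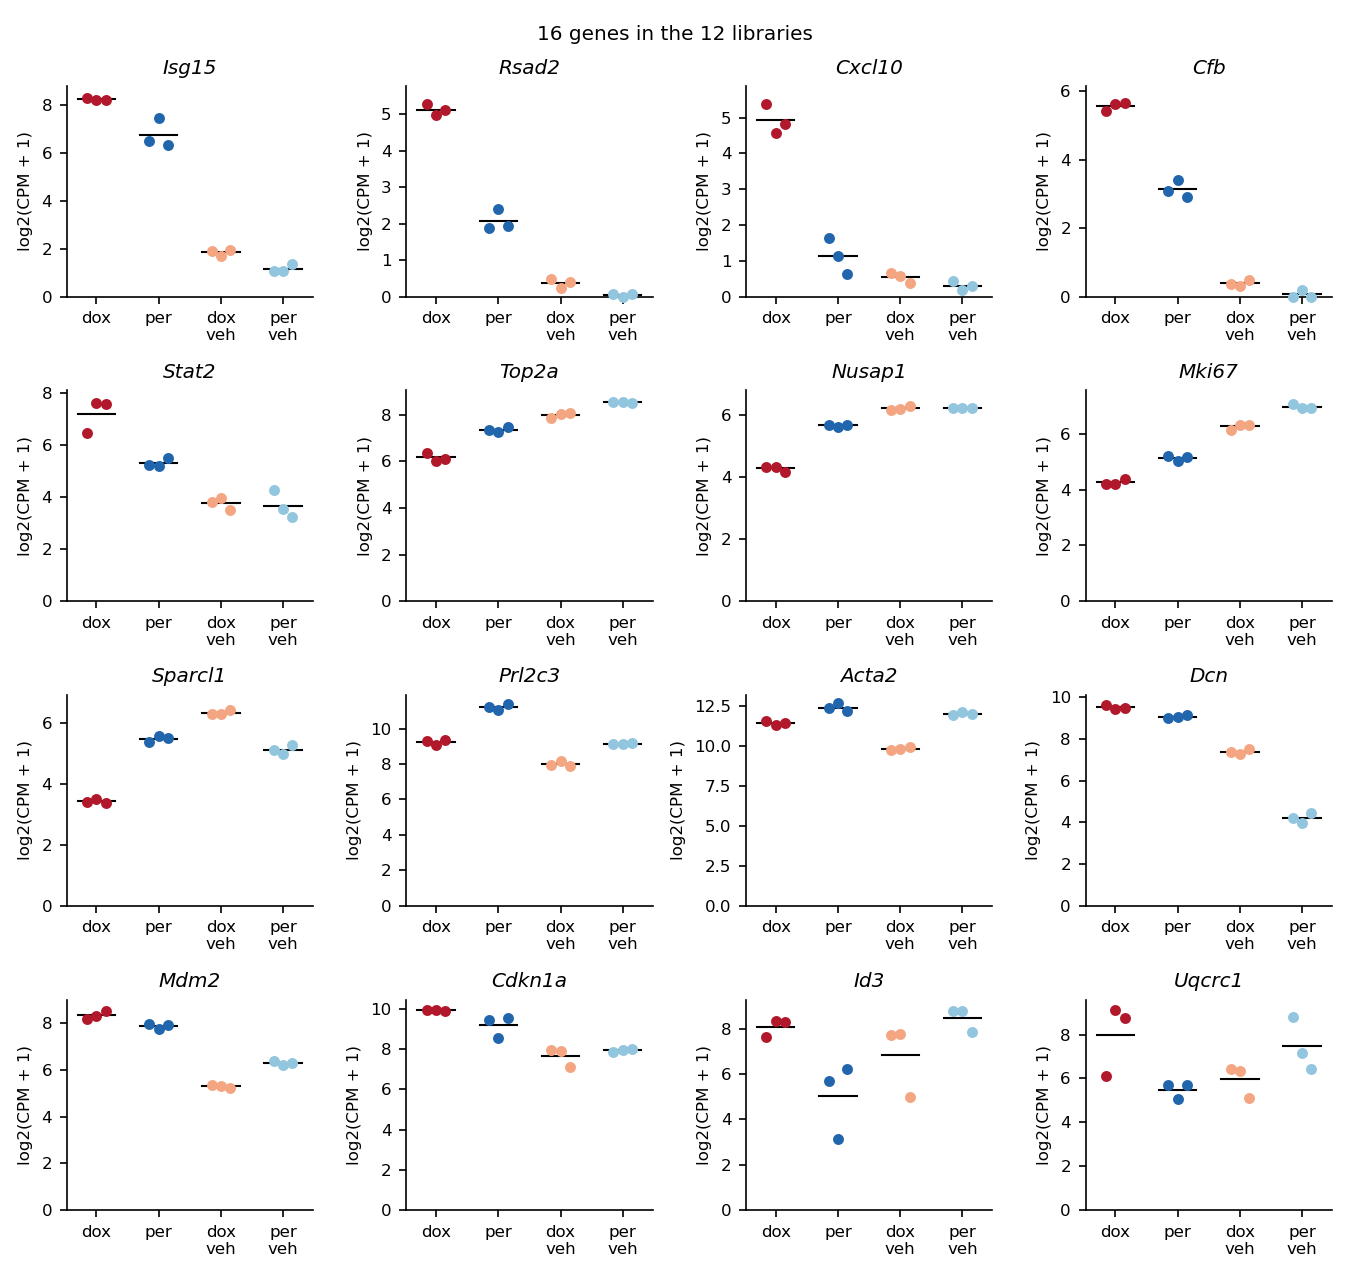
Levels of 16 genes in log2(CPM + 1), with 1 point per library, grouped as doxorubicin (dox), peroxide (per) and their vehicles (veh), and the group mean as a bar. Isg15, Rsad2, Cxcl10, Cfb and Stat2 are highest with doxorubicin, Top2a, Nusap1 and Mki67 are lowest with doxorubicin, and Id3 and Uqcrc1 show the spread of libraries within a group.

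Arrest genes under p53 differed in both directions. Cdkn1a, the p53 target that encodes p21, stood at 993, 1003 and 947 CPM with doxorubicin and 699, 371 and 749 CPM with peroxide, and all doxorubicin libraries lay above all peroxide libraries. The difference was 0.76 ± 0.26 (SE, n = 3 and 3, adjusted p = 0.0476), and it lost its call in 17 of 29 alternative settings. Mdm2, the ubiquitin ligase that restrains p53, stood at 290.2, 317 and 362 CPM with doxorubicin and 251, 215 and 244 CPM with peroxide (0.45 ± 0.09, SE, n = 3 and 3, adjusted p = 0.00585). Its vehicles stood the other way round, at 39.8, 38.7 and 36.6 CPM and 81.02, 72.8 and 76.5 CPM. Of 38 tested p53 targets (of 38), 9 were higher with doxorubicin, including Bax (0.39), Gdf15 (0.53) and Pltp (1.78), and 3 were higher with peroxide, namely Polk (-0.39), Apaf1 (-0.47) and Ddb2 (-0.49). Over all tested genes these shares were 9.5% and 18%. The list had a median of 0.17, and leaving out replicate 2 or 3 of the doxorubicin group left 4 or 5 members called higher. Among the other kinase inhibitors Cdkn1b (-0.05), Cdkn2c (0.07) and Cdkn2d (0.70) did not pass, Cdkn3 (-0.55) was higher with peroxide, and Cdkn2a and Cdkn2b were too low to test.

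Chromatin proteins that are lost or moved in senescence were called mainly towards peroxide. Of 20 tested, 8 were higher with peroxide, among them Hmgb2 (30.3, 30.9 and 32.1 against 55.1, 48.9 and 52.9 CPM, -0.73 ± 0.07), Hmgb3 (-0.75 ± 0.09) and Hmgb1 (-0.59), high-mobility-group proteins that bend DNA. Lmnb1, the lamin whose loss marks senescence, differed by -0.21 ± 0.16 (adjusted p = 0.323). Hmga1 was higher with doxorubicin (155, 211 and 207 against 74.5, 22.8 and 70.6 CPM, 1.91 ± 0.48), with peroxide replicate 2 far below the others and 69.1% of its windows shared. Of 17 tested histone genes (of 63), 10 were higher with doxorubicin and 0 with peroxide, beside 9.5% and 18% of all tested genes. This family was picked by symbol after its values were seen and includes the linker histone gene H1f0 (-0.11), which did not pass. H1f3 among the 10 passed the filter through the doxorubicin libraries alone. H2ac6, H2ac19 and H4c8, also among the 10, would not have reached 1 CPM in 3 libraries without the doxorubicin group. H4c8 stood at 6.15, 16.2 and 17.9 CPM with doxorubicin and 1.11, 0.123 and 1.62 CPM with peroxide (2.85 ± 0.37) and shares 45.8% of its windows with other genes. H2bc4 stood at 29.5, 425 and 226 CPM with doxorubicin and 15.9, 7.55 and 15.5 CPM with peroxide, and doxorubicin replicate 1 lay closer to the peroxide libraries than to its own group.

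Genes of the contractile apparatus, which marks myofibroblasts, had a median direct difference of -0.19 beside a median vehicle difference of -1.17. Acta2, smooth muscle actin, stood at 3015, 2539 and 2733 CPM with doxorubicin and 5163, 6549.6 and 4598 CPM with peroxide (-0.96 ± 0.12, SE, n = 3 and 3, adjusted p = 4.26e-04). The vehicles stood at 866, 878 and 978 CPM and 3899, 4477 and 4033 CPM, a vehicle difference of -2.19, so the difference of treatment effects was 1.22 (adjusted p = 6.32e-04) with the opposite sign. Of 29 contractile genes, 11 were higher with peroxide and 3 with doxorubicin in the direct difference, 24 were higher in the peroxide vehicle, and the difference of treatment effects was higher for 17 and lower for 0. Over all tested genes the direct shares were 18% and 9.5% and the share higher in the peroxide vehicle 12.9%. For the difference of treatment effects they were 13.5% higher and 20.1% lower. The count higher with doxorubicin fell to 0 with GC correction and without doxorubicin replicate 2, doxorubicin replicate 3 or peroxide replicate 1, and to 1 without peroxide replicate 2, peroxide replicate 3 or peroxide vehicle replicate 2. Myh11 (-1.23), Cnn1 (-1.14), Acta1 (-1.11), Actg2 (-0.98) and Tpm2 (-0.83) were among those higher with peroxide. Smtn (4.14, 30.7 and 19.7 against 3.11, 1.54 and 2.71 CPM) and Pdlim7 (60.9, 124 and 114 against 48.6, 26.3 and 55.01 CPM) were called higher with doxorubicin, with replicate 1 close to the peroxide libraries. Of 25 contractile genes with a promoter window, 5 (20%) held a CArG box, the element of serum response factor, on either strand, beside 1.55% of tested genes. Acta2 and Cnn1 held none in the 250 bases before their start.

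The targets and regulators of YAP, TEAD and serum response factor, which respond to tension, gave 9 of 27 higher with doxorubicin and 3 higher with peroxide. Fos stood at 15.97, 15.3 and 16.5 CPM with doxorubicin and 6.36, 3.12 and 7.66 CPM with peroxide (1.40 ± 0.23). Fosl1, from the same family, stood at 12.1, 42.4 and 30.6 CPM with doxorubicin and 6.32, 6.503 and 6.15 CPM with peroxide (1.84 ± 0.40). The classical YAP targets Ankrd1 (0.58) and Ccn2 (0.47) were called, and Ccn1 (1.21, adjusted p = 0.0548) was not.

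**Figure D4:**
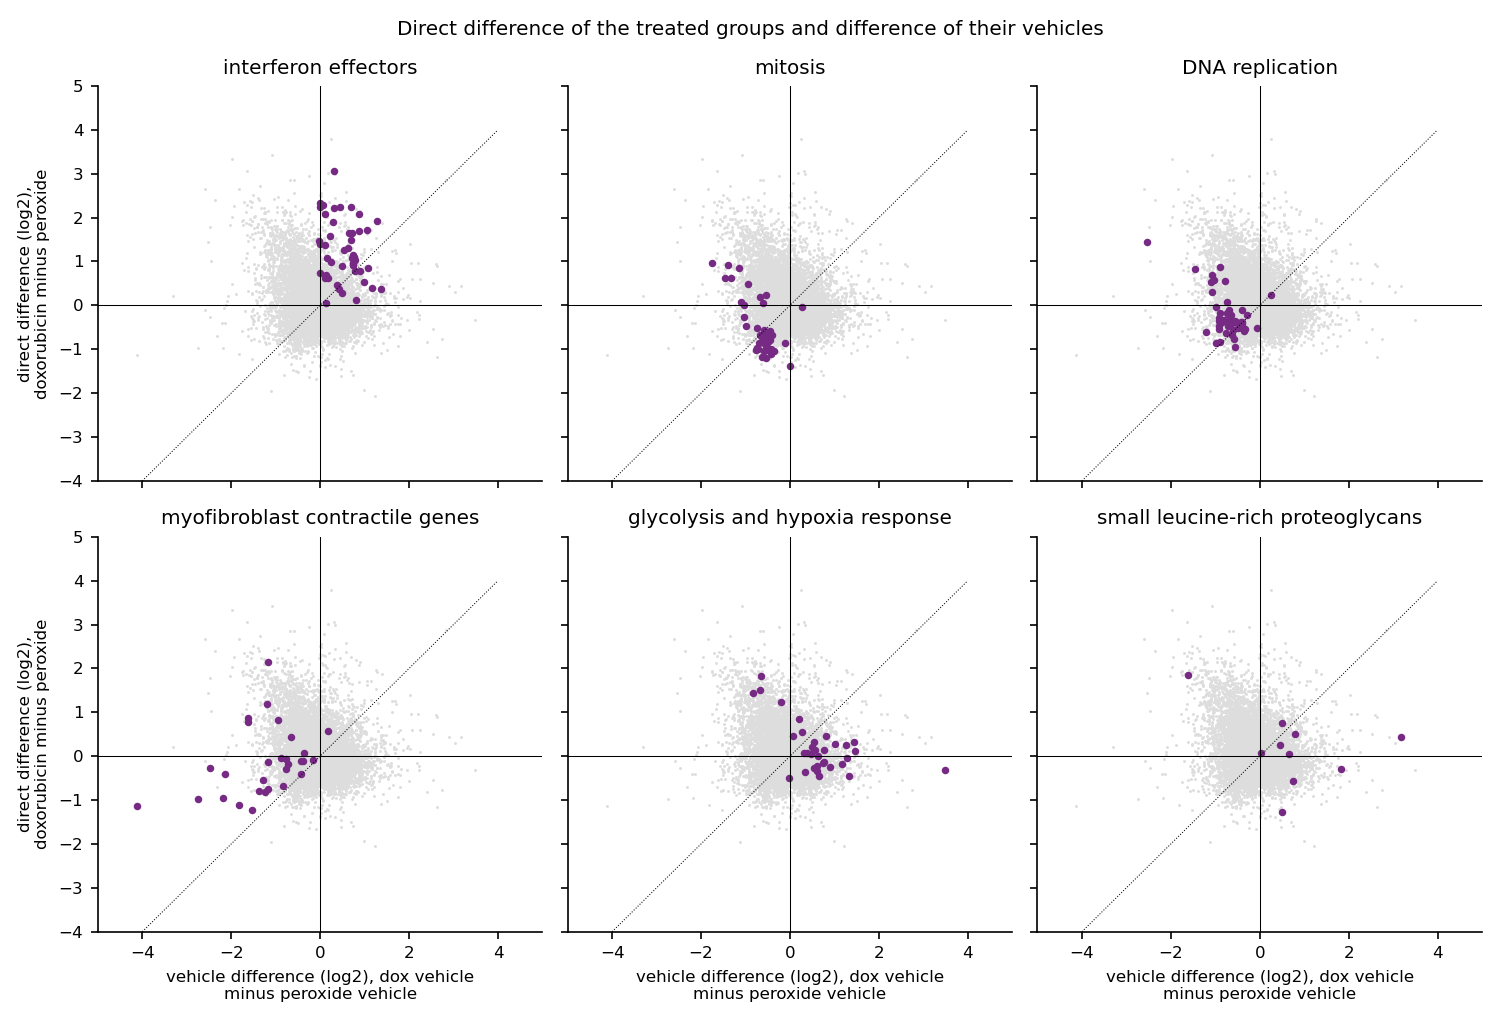
Each panel plots the direct difference of the treated groups (vertical) against the difference of their vehicles (horizontal) in log2(CPM + 1), with all tested genes in grey, the members of 1 list in purple and equality as a dotted line. Most contractile genes lie at negative vehicle differences that exceed their direct ones, and Dcn is the proteoglycan at the far right, at 3.18.

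Matrix genes moved in both directions and held several genes whose vehicles differed more than the treated groups. Dcn (decorin), which coats collagen fibrils, stood at 779.8, 688 and 725 CPM with doxorubicin and 518, 524 and 571 CPM with peroxide (0.44 ± 0.11, SE, n = 3 and 3, adjusted p = 0.0164). In the vehicles it stood at 165, 152 and 182 CPM and 17.4, 14.6 and 20.7 CPM, a vehicle difference of 3.18, and the difference of treatment effects was -2.74 (adjusted p = 3.60e-06). The related Prelp (286, 248 and 247 against 144, 176 and 145 CPM, 0.75 ± 0.15) was higher with doxorubicin, and Aspn (59.7, 52.04 and 59.8 against 147, 116 and 156 CPM, -1.26 ± 0.14) and Omd (-0.56) were higher with peroxide. Fmod, which binds collagen as well, was at 42.9, 283 and 179 CPM with doxorubicin and 35.1, 34.6 and 36.1 CPM with peroxide, with doxorubicin replicate 1 near the peroxide libraries, and lost its call in 17 settings.

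Col1a1, the main fibrillar collagen chain, did not pass the test, at 2611, 3859 and 2567 CPM with doxorubicin and 3446, 3087 and 3959.5 CPM with peroxide (-0.23 ± 0.15, adjusted p = 0.249), and its groups overlapped. Of 22 tested collagens (of 25), 7 were higher with peroxide, led by Col27a1 (-1.17), Col7a1 (-0.79) and Col12a1 (-0.66), and 2 were higher with doxorubicin, Col14a1 (3.59, 4.71 and 3.49 against 0.767, 2.26 and 1.03 CPM) and Col8a1 (193, 244 and 240.1 against 141, 119 and 128 CPM). The crosslinking enzyme Lox was higher with peroxide, at 542, 477 and 553 CPM with doxorubicin and 938, 879 and 1061 CPM with peroxide (-0.87 ± 0.08, SE, n = 3 and 3, adjusted p = 7.23e-05), with vehicles that differed by -0.10 (348, 352 and 334 and 372, 349 and 388 CPM). Of 20 crosslinking and processing genes 2 were higher with doxorubicin, Plod3 (1.05) and Adamts2 (0.41).

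Sparcl1 (chr5:104079111-104113733, - strand), a matricellular protein that limits adhesion, had the largest difference towards peroxide among the ranked genes. It stood at 9.64, 10.3 and 9.30 CPM with doxorubicin and 40.5, 46.6 and 44.2 CPM with peroxide, -2.06 ± 0.09 (SE, n = 3 and 3, adjusted p = 1.31e-06). Its vehicles stood in the reverse order, 78.5, 78.00 and 85.00 CPM for doxorubicin and 33.5, 30.8 and 37.5 CPM for peroxide, so the difference of treatment effects was larger, -3.28 (adjusted p = 4.15e-07). Of 31 matricellular and elastic fibre genes 11 were higher with doxorubicin, among them Ccn3 (1.96), Ccn5 (1.87), Fbln5 (1.08) and Fn1 (0.56), and 6 were higher with peroxide, among them the fibrillins Fbn1 (-0.50) and Fbn2 (-0.84). In basement membrane genes 4 of 17 were higher with doxorubicin and 1 with peroxide, with a median of 0.33.

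Proteases and their inhibitors gave 6 of 24 higher with doxorubicin and 3 with peroxide. Serpine2, an inhibitor of thrombin and urokinase, stood at 103, 771 and 323 CPM with doxorubicin and 82.9, 72.8 and 91.2 CPM with peroxide (1.84 ± 0.57), and its call was lost in 10 settings. Serpinb2, an inhibitor of plasminogen activators inside the cell, stood at 4.24, 3.51 and 3.97 CPM with doxorubicin and 0.631, 1.85 and 1.40 CPM with peroxide (1.13 ± 0.18). The stromelysin Mmp3 (0.51), which passed the filter through the doxorubicin libraries alone, and the inhibitors Timp1 (0.34) and Timp3 (0.28) were also called, and Adamts12 (-0.52) and Adamts9 (-0.51) were higher with peroxide.

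Secreted growth regulators were called in both directions. In the insulin-like growth factor axis (17 tested, 5 higher with doxorubicin, 3 with peroxide) the binding protein Igfbp3 stood at 10.5, 9.68 and 9.84 CPM with doxorubicin and 3.38, 4.48 and 2.99 CPM with peroxide (1.27 ± 0.14, SE, n = 3 and 3, adjusted p = 2.27e-04). Pappa, the protease that frees the growth factor from its binding proteins, was higher with peroxide, at 93.01, 75.7 and 77.96 CPM with doxorubicin and 156, 149 and 140.3 CPM with peroxide (-0.85 ± 0.10), beside a vehicle difference of -1.14. Igfbp5 (-0.76) was higher with peroxide as well. Igfbp6 (39.6, 216 and 177 against 23.9, 21.5 and 28.1 CPM) was called higher with doxorubicin with replicate 1 close to the peroxide range. The growth factors Fgf7 (301, 261 and 299.9 against 457, 439.7 and 483 CPM, -0.68 ± 0.07), Vegfa (-0.50), Angpt1 (-0.66) and Kitl (-0.57) were higher with peroxide, as were Fgf1 and Ptn, 6 of 29 in all, against 3 higher with doxorubicin, led by Hbegf (1.23), shares near the 18% and 9.5% of all tested genes. Without doxorubicin replicate 2 none of the 3 calls towards doxorubicin was left.

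In the TGF-beta, BMP and activin list, 8 of 31 were higher with doxorubicin and 5 with peroxide. The BMP-responsive inhibitors of differentiation led it, with Id3 at 200.3, 326 and 315 CPM with doxorubicin and 51.6, 7.91 and 74.8 CPM with peroxide (3.06 ± 0.83). Id1 stood at 2.00, 24.1 and 19.2 CPM with doxorubicin and 1.35, 0.803 and 1.45 CPM with peroxide (2.40 ± 0.75). Id3 was lowest in peroxide replicate 2 and Id1 in doxorubicin replicate 1 within its group. Follistatin, Fst, which binds activins, differed by 1.24, and Inhbb, an activin subunit, by -0.60. Of the Wnt and Notch genes 5 of 20 were higher with doxorubicin and 1 with peroxide. The secreted Wnt antagonist Sfrp4 was higher (13.1, 22.5 and 19.2 against 3.52, 1.14 and 3.88 CPM, 2.38 ± 0.32) and its relative Sfrp2 lower (5.26, 4.57 and 5.11 against 9.31, 7.47 and 12.1 CPM, -0.81 ± 0.16). Rspo3, which enhances Wnt signals, was higher (1.17).

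Among fibroblast identity genes 8 of 21 were higher with doxorubicin and 4 with peroxide. Cd34, a marker of adventitial fibroblasts, stood at 85.8, 117 and 97.05 CPM with doxorubicin and 52.1, 53.2 and 52.4 CPM with peroxide (0.90 ± 0.15) beside a vehicle difference of 2.64. Cxcl12 stood at 144, 877 and 372 CPM with doxorubicin and 121, 112 and 115 CPM with peroxide (1.63 ± 0.48), with doxorubicin replicate 1 near the peroxide libraries. The activation marker Fap (-0.65) was higher with peroxide. In the integrin list Itgb4 (1.19), Itga7 (1.03) and Sdc4 (0.46) were higher with doxorubicin and Itgb3 (16.4, 14.5 and 15.7 against 27.3, 29.7 and 25.8 CPM, -0.79 ± 0.09), Itga1 (-0.65), Sdc1 (-0.59) and Cdh11 (-0.20) with peroxide. Of the hyaluronan and prostaglandin genes Ptgs2, the inducible cyclooxygenase, was higher with doxorubicin (24.03, 20.1 and 20.5 against 13.8, 9.51 and 16.1 CPM, 0.70 ± 0.16), as were Ptgis (1.48) and Tnfaip6 (0.58), and the proteoglycan Vcan (-0.68), Ptges (-0.39) and Pla2g4a (-0.33) were higher with peroxide.

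Cholesterol synthesis genes were higher with doxorubicin in 14 of 25 tested members and with peroxide in 0, beside 9.5% and 18% of all tested genes, with a median of 0.45. Srebf2, the transcription factor of the pathway, stood at 24.4, 56.3 and 53.8 CPM with doxorubicin and 10.96, 5.81 and 12.9 CPM with peroxide (2.05 ± 0.43, SE, n = 3 and 3, adjusted p = 0.00689). Sqle, squalene epoxidase, stood at 85.98, 105 and 114 CPM with doxorubicin and 39.1, 10.4 and 48.8 CPM with peroxide (1.84 ± 0.52, SE, n = 3 and 3, adjusted p = 0.0239). Peroxide replicate 2 was far below its group for Sqle and for Mvk (22.1, 4.17 and 19.2 CPM against 33.3, 37.7 and 39.7 CPM with doxorubicin). Without it and doxorubicin vehicle replicate 3 the list held 15 genes higher with doxorubicin. The vehicle difference was called higher for 10 of the genes, beside 15.1% of all tested genes. The difference of treatment effects was called higher for 4 and lower for 2, beside 13.5% and 20.1%. In the fatty acid list 5 of 22 were higher with doxorubicin, Srebf1 (1.47), Pdk4 (1.12), Fads2 (0.89), Fasn (0.60) and Adipoq (0.69), and 3 with peroxide, Lpl (-0.58), Fabp4 (-0.45) and Elovl6 (-0.32).

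Glycolysis and hypoxia genes were called in both directions in the direct difference, 8 of 33 higher with doxorubicin and 5 with peroxide. Between the vehicles 24 were called higher for doxorubicin, beside 15.1% of all tested genes. Their difference of treatment effects was called lower for 18 and higher for 2, beside 20.1% and 13.5%. The lactate exporter Slc16a3 (1.51), Epas1 (4.15, 5.88 and 5.90 against 1.58, 0.741 and 1.78 CPM, 1.43 ± 0.22) and Pgam1 (1.24, 41.5% of windows shared) were higher with doxorubicin, and Hif1a (-0.45) and Bnip3 (-0.44) with peroxide. Oxidative phosphorylation genes gave 4 higher and 5 lower of 45, and from 1 to 8 higher and from 2 to 15 lower with 1 library left out. Uqcrc1, a core subunit of complex III, stood at 68.9, 549 and 433 CPM with doxorubicin and 51.4, 32.5 and 50.5 CPM with peroxide; it was called (2.51 ± 0.76, SE, n = 3 and 3, adjusted p = 0.0323) although replicate 1 lay near the peroxide libraries. The mitochondrially encoded mt-Nd2 was higher with peroxide (-0.55 ± 0.11).

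Lysosomal genes, whose enzymes include the beta-galactosidase used to stain senescent cells, were higher with doxorubicin in 9 of 38 and with peroxide in 1 (Ctsc, -0.72). Between the vehicles 20 were called higher for doxorubicin and 0 lower, with a median of 0.38, beside 15.1% and 12.9% of all tested genes. The difference of treatment effects ran the other way, called lower for 15 and higher for 5, with a median of -0.26, beside 20.1% and 13.5%. Fuca1 (57.1, 299.7 and 278 against 38.6, 28.8 and 47.4 CPM) and Hexa (81.8, 478 and 254 against 60.7, 63.02 and 61.6 CPM) had doxorubicin replicate 1 near the peroxide libraries. The count of lysosomal genes called higher was 3 without doxorubicin replicate 2 and 2 without doxorubicin replicate 3. Ctsz stood at 536, 691 and 661 CPM with doxorubicin and 304, 98.9 and 324 CPM with peroxide (1.55 ± 0.40), with peroxide replicate 2 lowest. Glb1, which encodes the stained enzyme itself, did not pass (0.22 ± 0.13, adjusted p = 0.216).

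Antioxidant genes were called in both directions. Of 47 tested, 9 were higher with doxorubicin and 8 with peroxide, beside 9.5% and 18% of all tested genes, so that the share higher with peroxide was near that of all genes. The median was 0.06. Hmox1, heme oxygenase, stood at 1085, 995 and 984 CPM with doxorubicin and 543, 709 and 517 CPM with peroxide (0.80 ± 0.11, SE, n = 3 and 3, adjusted p = 7.40e-04), and the vehicles differed by 0.68 in the same direction. Cat, the catalase that splits hydrogen peroxide, was slightly higher with peroxide, at 137, 129 and 132 CPM with doxorubicin and 163, 173 and 156 CPM with peroxide (-0.30 ± 0.07, SE, n = 3 and 3, adjusted p = 0.0102). The metallothioneins Mt2 (0.87) and Mt1 (0.71), Sod2 (0.90) and Gpx1 (236, 422 and 418 against 132, 58.5 and 192 CPM) were higher with doxorubicin. The quinone reductase Nqo1 (-0.82), the glutathione transferases Gsta4 (-0.67) and Gstt1 (-0.54) and the peroxiredoxins Prdx1 (-0.28), Prdx2 (-0.28) and Prdx3 (-0.38) were higher with peroxide. The regulator Nfe2l2 (0.02) and the cystine transporter Slc7a11 (0.07) did not pass.

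Other stress responses differed in few members. Of 30 unfolded protein response and ATF4 targets 8 were higher with peroxide, including the isomerase Pdia6 (766, 681 and 693 against 998, 1125 and 1015 CPM, -0.55 ± 0.07), Cebpg (-0.55), Hsp90b1 (-0.45) and Xbp1 (-0.44), and Ppp1r15a (2.02) was higher with doxorubicin, beside 18% and 9.5% of all tested genes. Among 18 heat shock chaperones Hsph1 (1.12) was higher with doxorubicin and Hspb1 (-0.70, 51.6% of windows shared) with peroxide. Of the iron genes Steap3 (1.14), Hfe (0.48) and the ferritin chain Ftl1 (0.31) were higher with doxorubicin and Steap1 (-0.36) and Ireb2 (-0.33) with peroxide. Of the efflux genes Abcb6 (1.38, 66.8% of windows shared) was higher with doxorubicin and Abcc3 (-0.53) and Abcc4 (-0.33) with peroxide; Abcb1a (-0.09) and Abcb1b (0.01), the pumps that export doxorubicin, did not pass.

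Cytosolic ribosomal protein genes were slightly higher with peroxide, 18 of 44 against 1, with a median of -0.25, led by Rpl3 (-0.51, 58.4% of windows shared) and Rpl22 (-0.46). Across the settings, scalings included, the count called higher with peroxide ran from 3 to 33, with 6 under TMM factors. Rplp2 (1.23) was the member higher with doxorubicin. Ribosome biogenesis genes gave 6 of 25 higher with doxorubicin, among them Bop1 (16.9, 62.4 and 57.2 against 10.7, 3.31 and 11.1 CPM) and Mybbp1a (151, 173 and 174 against 74.01, 19.2 and 95.1 CPM). In all 6 either doxorubicin replicate 1 or peroxide replicate 2 was less than 0.5 times both others of its group. Of the clock genes the repressor Nr1d1 (134, 134 and 129 against 78.7, 12.9 and 68.9 CPM), Dbp (0.56) and Bhlhe40 (0.39) were higher with doxorubicin and Per3 (-0.77), Arntl (-0.59), Cry1 (-0.52) and Nfil3 (-0.38) with peroxide, and cells of the 2 groups were lysed on different days.

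Genes outside the lists with the largest differences towards peroxide included secreted and neural genes. Prl2c3, a member of the prolactin family of growth-promoting hormones known as proliferins, stood at 633, 540.4 and 664 CPM with doxorubicin and 2404, 2077 and 2691 CPM with peroxide (-1.96 ± 0.11, SE, n = 3 and 3, adjusted p = 4.15e-06), and Prl2c5 at -1.59 ± 0.18. Reads of this family overlap, since 78.6% of the windows of Prl2c3 are shared, mainly with Prl2c2. Stmn2, a microtubule-destabilising protein best known from neurons, stood at 3.03, 2.74 and 2.72 CPM with doxorubicin and 13.2, 14.95 and 12.8 CPM with peroxide (-1.93 ± 0.17). Prg4 (lubricin), a lubricant of joints, stood at 4.62, 3.61 and 3.67 CPM with doxorubicin and 13.1, 15.1 and 16.1 CPM with peroxide (-1.67 ± 0.15). The mechanically gated channel Piezo2 (2.61, 2.21 and 2.10 against 11.6, 8.40 and 8.18 CPM), Lrrc17 (57.6, 52.7 and 53.1 against 184, 174 and 151 CPM), Trarg1 (6.43, 6.51 and 6.32 against 18.5, 25.4 and 20.7 CPM), Hsd3b6 (-1.52), the lipid-presenting Cd1d1 (-1.50, 25.8% of windows shared) and the peptide hormone Cck (-1.49) completed the 12 largest, with Sparcl1 and Nusap1.

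Towards doxorubicin, the 12 largest differences varied in how far the libraries of a group lay apart. In Cxcl10, Rsad2 and Tgtp2 neither doxorubicin replicate 1 nor peroxide replicate 2 was the lowest of its group. The low peroxide values of Cxcl10 and Tgtp2 were nonetheless spread widely. Gadd45g, a stress-responsive regulator of growth arrest, stood at 19.3, 154 and 126 CPM with doxorubicin and 9.34, 2.66 and 9.44 CPM with peroxide (3.33 ± 0.82). Alkbh6 stood at 3.45, 55.4 and 22.2 CPM with doxorubicin and 2.16, 0.772 and 1.78 CPM with peroxide (2.85 ± 0.76). Both had doxorubicin replicate 1 at less than 0.5 times the other 2 libraries. Cst6, a cysteine protease inhibitor, stood at 33.8, 64.3 and 61.8 CPM with doxorubicin and 6.77, 2.59 and 10.3 CPM with peroxide. Sema3b, a guidance cue, stood at 14.02, 38.9 and 29.7 CPM with doxorubicin and 3.43, 1.45 and 4.11 CPM with peroxide. Ndufa4l2, a hypoxia-induced mitochondrial protein, stood at 26.8, 31.8 and 25.8 CPM with doxorubicin and 5.86, 0.216 and 6.54 CPM with peroxide, beside a vehicle difference of 2.83. Peroxide replicate 2 was the lowest of its group for Cst6, Sema3b and Ndufa4l2.

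This spread was counted over all genes, as genes in which doxorubicin replicate 1 or peroxide replicate 2 was less than 0.5 times both other libraries of its group. They made up 9.74% of tested genes, 295 of the 510 genes (57.8%) higher with doxorubicin by at least 1, 333 of the 1262 (26.4%) called higher with doxorubicin at all, and 12 of the 2384 higher with peroxide. They included 0 of the 42 interferon effectors and 0 of the 30 mitosis genes called. That count took only low libraries. In 2 of the 42 effectors 1 of these libraries lay more than 2 times above both others of its group, beside 81 of 13280 tested genes. Leaving out doxorubicin replicate 1 raised the count higher by at least 1 to 913, and leaving out doxorubicin replicate 2, doxorubicin replicate 3 or peroxide replicate 2 lowered it to 183, 202 or 269. Leaving out replicate 2 or 3 of the doxorubicin group lowered the count of all genes called higher with doxorubicin from 1262 to 541 or 555, and leaving out doxorubicin replicate 2 lowered that of genes higher with peroxide from 2384 to 1442.

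The genes named by rule had a call in the direct difference in 146 cases, of which 0 changed direction. The call held in all 29 alternative settings for 77 of them, and in all 28 settings that tested them for 9 more, which the filter of 5 CPM removed. Leaving out doxorubicin replicate 2 ended the calls of 48 of them and leaving out doxorubicin replicate 3 those of 46. Both sets held Gadd45g, H2bc4, Id3, Id1, Alkbh6, Hmga1, Irf1, Nfkbia, Nfkbib, Cxcl12, Igfbp6, Srebf1, Sqle, Mvk, Uqcrc1, Fuca1, Hexa, Ctsz, Gpx1, Smtn, Bop1, Mybbp1a, Rplp2, Nr1d1, Serpine2 and Cdkn1a. Leaving out peroxide replicate 2 ended 29 calls, including those of Alkbh6, Id1, Mvk, Bop1, Sod2 and Cdkn1a, peroxide replicate 1 ended 25, including that of Dcn, and peroxide replicate 3 ended 21, including that of Tap1. Doxorubicin replicate 1 ended 7 and the vehicle libraries between 3 and 15. By list, leaving out replicate 2 or 3 of the doxorubicin group took the count higher with doxorubicin from 11 to 6 and 6 for matricellular genes and from 8 to 4 and 4 for the TGF-beta list. The same counts went from 8 to 4 and 3 for fibroblast identity, from 8 to 3 and 4 for glycolysis and from 6 to 1 and 0 for ribosome biogenesis. Without doxorubicin replicate 3, doxorubicin replicate 2 or peroxide replicate 2 the insulin-like growth factor count went from 5 to 1, 3 or 2. Over the 42 lists the count higher with doxorubicin moved by over 1.5 times in 30 when some single library was left out, and the count higher with peroxide in 22. The counts that stayed within 1.5 times included those of interferon effector, MHC class I and cholesterol genes higher with doxorubicin, and those of mitosis, replication and break repair genes higher with peroxide. The count of mitosis genes higher with doxorubicin reached 3 and that of replication genes 4 without doxorubicin replicate 1.

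The calls also followed base composition. In the quintile of genes with the lowest transcript GC content 4.86% were higher with doxorubicin and 28.2% with peroxide, and in the quintile with the highest GC content 17.8% and 5.65%. The median direct difference went from -0.20 in the lowest quintile to 0.14 in the highest, while the median vehicle difference was -0.02 and -0.05. With each library corrected for GC content 1178 genes were higher with doxorubicin and 2314 with peroxide, including 41 interferon effectors and 30 mitosis genes. Of the calls as first fitted 969 of 1262 and 1858 of 2384 were among them. The correction took the contractile genes higher with doxorubicin from 3 to 0, the iron genes higher with peroxide from 2 to 0 and the collagens higher with peroxide from 7 to 12. The part of composition in the other differences was not tested.

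**Figure D5:**
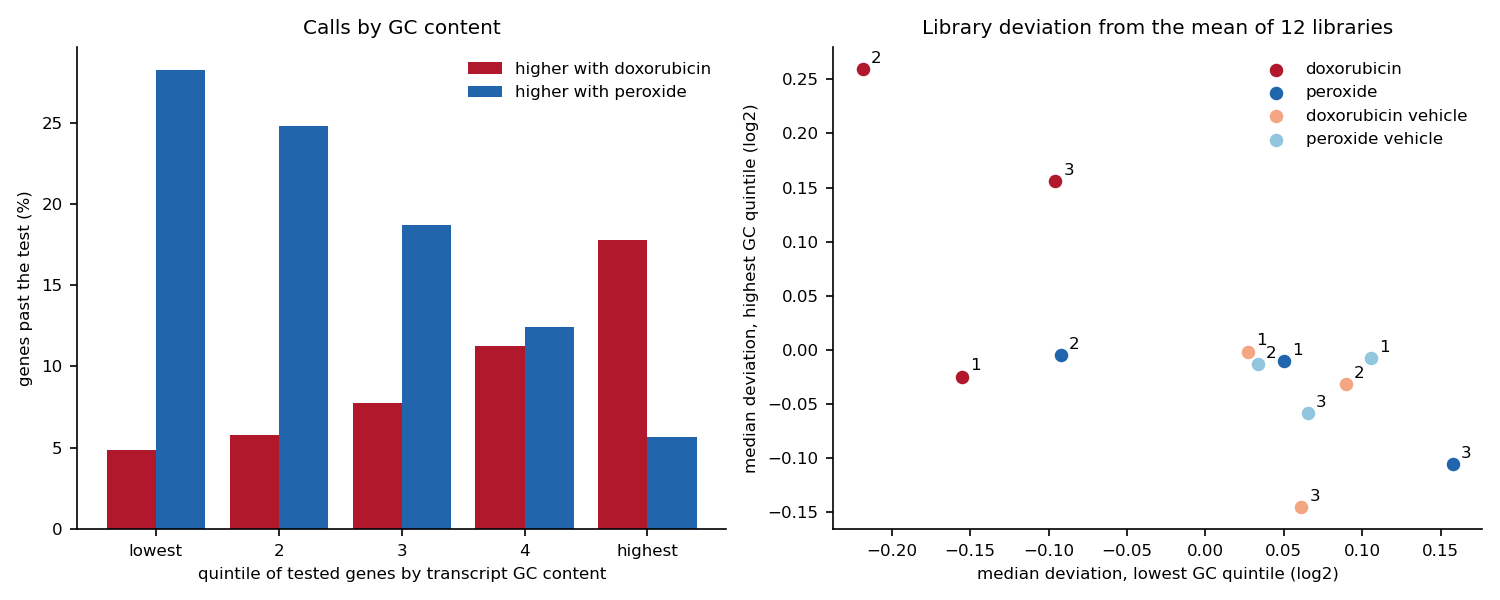
Left, percentage of genes called higher with doxorubicin (red) or with peroxide (blue) in quintiles of tested genes by transcript GC content; right, median deviation of each library (numbered by replicate) from the mean of all 12 libraries, in log2(CPM + 1), for the lowest GC quintile (horizontal) and the highest (vertical). Doxorubicin replicates 2 and 3 sit at the upper left, at 0.26 and 0.16 for the highest quintile.

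The direct calls were set beside the calls between the vehicles, which covered 15.1% of all tested genes as higher in the doxorubicin vehicle and 12.9% as higher in the peroxide vehicle. Of the 1262 genes higher with doxorubicin, 188 (14.9%) were also higher in the doxorubicin vehicle, 149 (11.8%) were higher in the peroxide vehicle and 925 were not called between vehicles, shares near those of all tested genes. Of the 2384 genes higher with peroxide, 534 (22.4%) were also higher in its vehicle, 478 (20.1%) were higher in the doxorubicin vehicle and 1372 were not called. Genes were also chosen by a vehicle difference of at least 1 on the log2 scale, a choice that by itself favours smaller values elsewhere. Of 216 genes (1.63%) higher in the doxorubicin vehicle, with a median vehicle difference of 1.26 and a median direct difference of -0.05, 207 had a smaller direct difference. Of 234 genes (1.76%) higher in the peroxide vehicle, with medians of -1.22 and 0.27, 233 had one. Dcn belonged to the former class and Acta2 to the latter.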

How the data were processed

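RNA was measured by sequencing in 12 libraries, 3 in each of 4 groups. Per the submitters' processing notes, the tools were bcl2fastq and DRAGEN and the genome build was mm10; the way reads were counted, and whether by strand, is not given in the sources used here. In unit, the deposited table holds the authors' CPM values, scaled to a common total per library, so the main fit was not a count model. An alternative voom fit used reads estimated from these values and the depth, and it called 1480 genes higher with doxorubicin and 2680 higher with peroxide. Of its 55774 lines, 287 repeated an identifier with equal values, leaving 55487 genes. Depth was estimated from the value of 1 read, and 3 reads correspond to between 0.0798 and 0.173 CPM; such limits reflect read counting alone.

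The 13280 genes that reached 1 CPM in 3 or more of 12 libraries were fitted as log2(CPM + 1) with limma 3.58.1 in R 4.3.3, with 4 group means over all 12 libraries, a mean-variance trend, two-sided tests and Benjamini-Hochberg adjustment over all tested genes, at 0.05. The fit was tested on simulated data. The difference of treatment effects and the vehicle difference came from the same fit and share libraries with the direct difference. Promoters came from RefSeq (GRCm38.p6) and gene positions and transcripts from GENCODE M21, both on the mm10 assembly. Shared windows are 50-base stretches of a gene's longest transcript that also occur in transcripts of other genes.

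Genes were named by rule: a panel of 11, the 12 largest differences in each direction among named genes that passed the test with no overlap and at least 5 CPM in the higher group, and the 3 largest passing members of each of 42 lists. Other list members and the gene families were chosen after their values were seen. The members, lists and the panel were chosen with earlier results of these data known. Alternatives were another pseudocount, filter, scaling, weighting, threshold, replicate block, GC correction and covariate, a voom fit, a separate fit, and libraries left out. Values of some list members are not reported here.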

Additional observations from a re-analysis of the deposited data

Results flagged for a closer look

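For 30 genes of the panel and of the largest differences the response to doxorubicin over its vehicle differed from the response to peroxide over its vehicle, by limma's test of that difference (Benjamini-Hochberg adjusted p below 0.05, n = 3 libraries in each of 4 groups). Values are log2 differences of the treatment effects, doxorubicin minus peroxide. Among interferon-linked genes these were 3.54 for Cxcl10, 2.83 for Psmb8, 2.74 for Rsad2 and 2.66 for Tgtp2. For arrest and stress genes they were 1.04 for Cdkn1a, 1.43 for Mdm2, 5.31 for Gadd45g, 1.36 for Il6 and -0.81 for Cat. Cell cycle genes had -0.65 for Top2a and -1.38 for Nusap1.

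Histone genes had 4.50 for H2bc4 and 3.45 for H4c8, and Id3 had 4.71, Alkbh6 3.53, Cst6 3.19 and Sema3b 2.71. The contractile gene Acta2 had 1.22 and the proteoglycan gene Dcn -2.74, both with a sign opposite to their direct difference. Genes that were higher with peroxide had -3.28 for Sparcl1, -2.92 for Stmn2, -2.33 for Trarg1, -2.20 for Cd1d1, -2.10 for Lrrc17, -1.58 for Prg4 and -1.40 for Piezo2. The smaller ones were -1.02 for Hsd3b6, -0.95 for Cck, -0.84 for Prl2c3 and -0.78 for Prl2c5.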

How the results depend on the processing

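Counts below are genes higher and lower with doxorubicin in the direct difference unless named otherwise. Array weights gave 2439 and 3655, a separate fit of the 6 treated libraries 454 and 826, and a threshold of 0.01 gave 374 and 1005. The covariate for the main within-group direction gave 2287 higher, leaving out doxorubicin replicate 1, peroxide replicate 2 and doxorubicin vehicle replicate 3 together gave 2284 higher. Leaving out 1 library at a time gave between 541 and 1881 higher and between 1442 and 2517 lower. Of genes higher by at least 1 log2 there were 279 with no filter, 231 in the separate fit, 161 at 0.01, 840 without the 3 libraries and between 183 and 913 without 1 library. Of genes lower by at least 1 log2 there were 210 with a pseudocount of 0.1, 47 with 2, 51 with TMM factors and 240 with voom on estimated reads, which does not compress low values. The difference of treatment effects had 2847 higher with array weights, 2702 with the covariate and 623 at 0.01, between 1131 and 2262 without 1 library, and 1318 lower at 0.01. The vehicle difference had 1124 higher and 918 lower at 0.01, and 2694 lower with array weights and 2688 with the covariate. The stricter promoter element was found in 35.3% of effector windows in place of 52.9%. With a replicate block the direct counts were 879 and 2108. Same-numbered treated libraries had correlations of deviations of -0.203, -0.0901 and 0.234, and same-numbered vehicle libraries of 0.241, -0.0323 and 0.394. These few values cannot decide whether libraries with the same number were paired. Of the 146 genes named by rule and called, 0 changed sign, and other genes were not checked for this. The balance of calls between the directions turned under TMM factors, with 1661 higher and 1425 lower. The causes of these shifts were not tested.

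Depth limits low genes such as Ifnb1, and the deposited values are CPM and not read counts, so the voom fit rested on estimated reads. Inducer, day and experiment cannot be told apart with 1 line and 3 libraries a group.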

Other observations

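3 further gene families were chosen after their values were seen; Gadd45a is also in the p53 list, and Mt1 and Mt2 are in the antioxidant list. The Gadd45 genes, stress-responsive regulators of arrest and repair, split, with Gadd45g (3.33) and Gadd45b (1.61) called higher with doxorubicin and Gadd45a at -0.60 (limma adjusted p = 0.210). All 3 had peroxide replicate 2 at less than 0.5 times both other peroxide libraries. Both metallothioneins, Mt1 and Mt2, which bind zinc and other metals, were higher with doxorubicin, with a median of 0.79, beside a median vehicle difference of 0.82 and a median difference of treatment effects of -0.03. All 3 tested Prl2c genes were higher with peroxide, with a median of -1.59 beside a median vehicle difference of -0.81.

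By gene class, 1210 of 11741 protein-coding genes (10.3%) were higher with doxorubicin and 2154 (18.3%) with peroxide, and of 215 long intergenic RNA genes 8 (3.72%) were higher with doxorubicin and 40 (18.6%) with peroxide.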
